A study of Mus musculus with 4 samples.

Results

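Atg16l1 lies on mouse chromosome 1, and the genes described here are its neighbours on that chromosome, 55 genes from Trip12 to Pdcd1 with Atg16l1 itself left out. They were chosen from this interval, with earlier results of these data known, to ask about DNA linked to the altered allele. The array names 53 other genes of the interval that are not members. Probe sets annotated with a single symbol name 18161 genes on the array, 51 of the 55 among them. These 51 have 128 such probe sets, of 45037 that are not Affymetrix controls. Of these, 86 probe sets of 36 genes passed a filter on dim signals and were tested, and the other 42 probe sets, among them all those of 15 genes, were too dim. No value is given for Hjurp and Ptma, whose probe sets carry several symbols, or for Sp140 and Arl4c, for which no probe set carried the symbol.

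Expression was measured on Affymetrix arrays in thymocytes, taken whole from the thymus without sorting, of mice aged 7 weeks. The hypomorph group, whose Atg16l1 works at a lowered level, has 2 arrays, and the control group, called wild type in the labels, has 2 as well. The series text lists 2 independent mice per group, 1 of each sex, without saying which array is the male. The strain of the mice and the way the allele was made were not given in the sources used here.

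Atg16l1 encodes a subunit of the complex that joins LC3 family proteins to lipid on the growing autophagosome, the vesicle in which cells enclose their own material for breakdown. When an altered allele is made in cells of one mouse strain and bred into another, the DNA beside it tends to travel with it, because recombination seldom separates close neighbours. Genes of such a stretch can therefore differ in sequence between mutant and control mice, in their regulation or in the bases that array probes match, with no link to the function of the altered gene. In the present design every hypomorph animal carries both the allele and whatever DNA is linked to it, so that their effects cannot be told apart.

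The median deposited signal was 23.5 to 38.4 on the 4 arrays, highest on hypomorph replicate 1, and each array was therefore centred on the common median. After centring, the log2 change, hypomorph minus control, still had a median of 0.18 over the 22519 tested probe sets. Changes are given below as log2 changes from the limma fit and, where called relative, after subtraction of this median. The limma p-values test the log2 change against 0 and not against this median, so they are no test of a relative change. Over all tested probe sets, 14.9% had an unadjusted p under 0.05 in limma with hypomorphs higher and 1.19% with hypomorphs lower. T lineage markers were present on all arrays, with a summed centred signal over 10 genes of 33084 to 37924 in hypomorphs and 31343 to 36809 in controls. Markers of other cells moved in part with the groups. The sum over 6 B cell genes was 457 to 478 in hypomorphs and 576 to 699 in controls, with 5 of the 6 below the median change, and that over 8 macrophage and dendritic cell genes was 2998 to 3093 against 3446 to 3894, with 8 of 8 below. Granulocyte genes summed to 2098 to 3550 against 611 to 5563. Sums for erythroid genes, all dim, were 23.5 to 25.7 against 17.8 to 40.6, for thymic epithelium 111 to 145 against 137 to 138, and for fibroblasts and endothelium 198 to 217 against 195 to 222. Only 2 of the 5 thymic epithelium genes were bright enough to test. Of the 5 fibroblast and endothelium genes only Pecam1 was, and it holds most of that sum, which therefore says little of the dim fibroblast genes. None of the tested genes in these lists was called by limma, and their part in the results below was not tested. In whole thymocyte RNA, fewer cells of a type and less RNA per cell cannot be told apart.

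Most genes beside Atg16l1 had values close to those of genes elsewhere, and a few on 1 side of it stood far away. The median relative change of the 86 tested probe sets was -0.04, and 72 of them (83.7%) lay within 0.5 of the median of all probe sets, against 91.8% of all tested probe sets. limma called 2 of the 86 at an adjusted p under 0.05, both of Ramp1, 1 higher and 1 lower, while 0.0622% of all tested probe sets were called, 0.0488% higher and 0.0133% lower. Of the 86, 5 lay more than 1 from the median on the log2 scale, 1 above and 4 below. Over all tested probe sets 0.946% did so, 0.333% above and 0.613% below. The 5 belonged to Sag, Ramp1 (a pair), Stk25 and D2hgdh, all on the side of Atg16l1 that runs toward Pdcd1. That of Sag passed the filter on dim signals only through the controls, where it is high. Without hypomorph replicate 1 the count was 8. It was 13 of 128 when dim probe sets were kept in and 1 of 41 when the filter was set at the 75th percentile.

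These 4 genes are shown by the reference sequence around their transcription start, from 250 bases before it to 50 after it, because their probe sets carried the departures in the interval. The sequences are those of RefSeq on build GRCm38.p6, from a C57BL/6J mouse, read along the strand of the gene, at chr1:87803430-87803729 for Sag (plus strand), chr1:91179572-91179871 for Ramp1 (plus strand), chr1:93635678-93635977 for Stk25 (minus strand) and chr1:93824990-93825289 for D2hgdh (plus strand). Capitals mark matches on either strand to GGGCGG (the GC box), CCAAT or TATAAA (the TATA box).
Sag: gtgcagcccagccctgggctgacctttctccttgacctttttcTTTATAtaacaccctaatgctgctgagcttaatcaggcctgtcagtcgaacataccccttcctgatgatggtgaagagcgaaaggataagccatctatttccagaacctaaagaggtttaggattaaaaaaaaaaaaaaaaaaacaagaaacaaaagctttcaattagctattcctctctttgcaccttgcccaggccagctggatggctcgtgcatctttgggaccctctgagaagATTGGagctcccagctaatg
Ramp1: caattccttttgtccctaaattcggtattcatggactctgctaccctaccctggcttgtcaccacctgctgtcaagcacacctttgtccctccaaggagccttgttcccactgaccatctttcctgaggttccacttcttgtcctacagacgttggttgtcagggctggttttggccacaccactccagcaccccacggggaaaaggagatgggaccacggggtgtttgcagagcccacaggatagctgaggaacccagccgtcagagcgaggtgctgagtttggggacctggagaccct
Stk25: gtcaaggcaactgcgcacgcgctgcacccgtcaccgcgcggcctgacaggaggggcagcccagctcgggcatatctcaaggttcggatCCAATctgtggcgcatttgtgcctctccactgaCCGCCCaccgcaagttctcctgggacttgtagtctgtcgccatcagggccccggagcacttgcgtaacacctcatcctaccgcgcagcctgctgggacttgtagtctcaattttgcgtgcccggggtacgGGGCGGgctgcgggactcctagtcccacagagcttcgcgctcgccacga
D2hgdh: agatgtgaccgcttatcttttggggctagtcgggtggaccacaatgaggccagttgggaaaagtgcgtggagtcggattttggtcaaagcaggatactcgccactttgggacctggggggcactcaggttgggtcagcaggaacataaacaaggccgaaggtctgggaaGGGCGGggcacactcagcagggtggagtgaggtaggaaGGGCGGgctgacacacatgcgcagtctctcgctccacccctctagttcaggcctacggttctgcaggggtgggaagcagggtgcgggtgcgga
The starts differ in composition. That of Stk25 held 26 CpG dinucleotides and 64% G and C, and that of D2hgdh 13 and 59.7%, each with 2 GC boxes, while those of Ramp1 (6 CpG, 55.7%) and Sag (3 CpG, 44.7%) held no GC box. Sag was the only one of the 4 with a match to TATAAA, and Stk25 and Sag each had 1 match to CCAAT. In Sag both matches are on the opposite strand. Its TATAAA match lies near the beginning of the stretch, far before the start, and its CCAAT match lies after the start. Among 32851 RefSeq promoters of the same length, 35.7% held GGGCGG, 37.4% CCAAT and 13.6% TATAAA, with medians of 7 CpG and 52.7% G and C. A match is a description of letters, and the sequences carried by the mice of the study were not analysed here.

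Atg16l1 itself, on the probe set that could be tested, read 108 and 70.8 in hypomorphs against 184 and 241 in controls. The groups did not overlap, a comparison made here and below on centred values, and the log2 change was -1.57 ± 0.18 (SE, n = 2 per group; adjusted p 0.0142 in limma), or 33.6% of the control signal. The call held in 7 of 12 alternatives, with adjusted p-values of 0.000107 to 0.274. It ended without control replicate 1 (0.0751), without control replicate 2 (0.0893), on uncentred values (0.114), with no filter (0.0596) and without a variance trend (0.274).

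Ramp1, at place 25 after Atg16l1 in the order of genes named by the array, encodes a membrane protein that pairs with the calcitonin receptor-like receptor to form a receptor for the neuropeptide CGRP. Its 3 tested probe sets differed from each other. Probe set 1431413_at had deposited signals of 273 and 229 in hypomorphs and 27.8 and 38.0 in controls. Both hypomorph arrays were far above both controls, with centred log2 means of 7.81 ± 0.14 and 5.29 ± 0.16 (SD, n = 2 each), and the probe set rose 5.77-fold (log2 change 2.53 ± 0.21 SE, 95% confidence interval 2.06 to 3.002, adjusted p 0.00111 in limma). Probe set 1447474_at had signals of 54.1 and 38.96 in hypomorphs and 118 and 127 in controls. Here both hypomorph arrays were below both controls, at centred means of 5.43 ± 0.0028 and 7.13 ± 0.06 (SD, n = 2 each), and the probe set fell to 30.8% of control (log2 change -1.70 ± 0.22 SE, 95% confidence interval -2.19 to -1.21, adjusted p 0.0233). Probe set 1417481_at had signals of 3054 and 2359 in hypomorphs and 1438 and 2140 in controls, a log2 change of 0.28 ± 0.15 (95% confidence interval -0.05 to 0.62, adjusted p 0.364), or 0.10 above the median of all probe sets.

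The gap between the highest and the lowest tested probe set of Ramp1 was 4.23 on the log2 scale. For the 26 members with more than 1 tested probe set the median gap was 0.45, and only Ramp1, D2hgdh and Trip12 had a gap above 1, at 4.23, 1.19 and 1.06. The rise of 1431413_at held in 11 of the 12 alternatives that tested it, with adjusted p-values of 4.52e-11 to 0.0552, the highest being that without a variance trend. The fall of 1447474_at held in 5 of 12 (range 0.000329 to 0.168). Among others it was lost with quantile normalization (adjusted p 0.0825), without centring (0.0712), without a filter (0.124), without a variance trend (0.167) and without control replicate 1 (0.168) or control replicate 2 (0.115), although its log2 change stayed between -1.87 and -1.37.

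**Figure D1:**
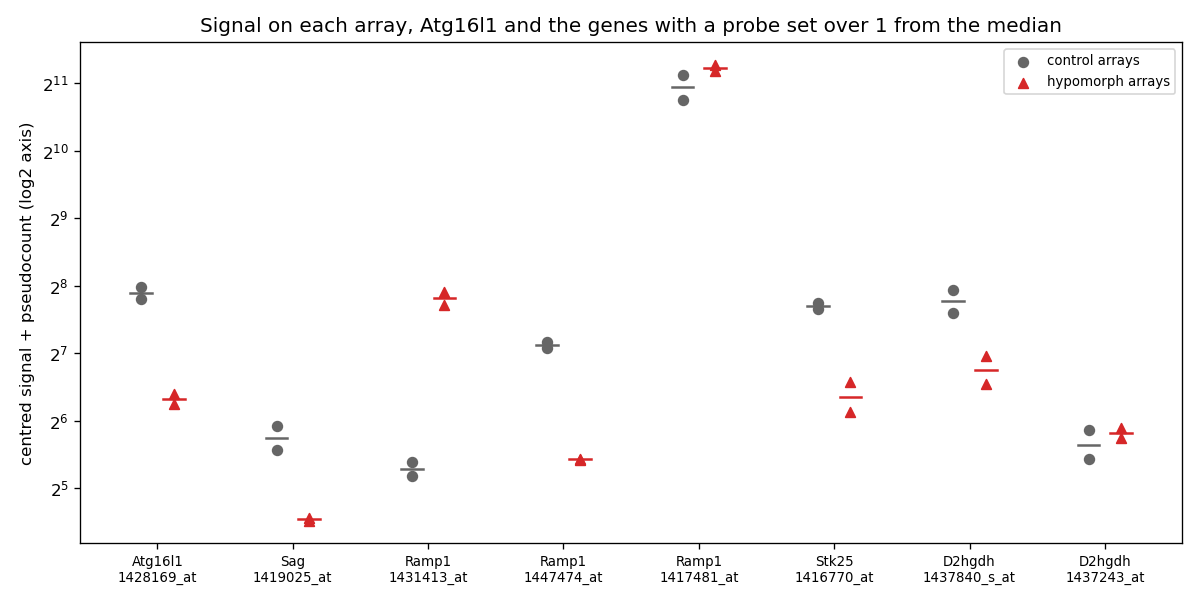
Centred signal plus pseudocount on each array (vertical log2 axis) for the main Atg16l1 probe set and 7 probe sets of Sag, Ramp1, Stk25 and D2hgdh. Grey circles are the 2 control arrays, red triangles the 2 hypomorph arrays and short lines the group means on the log2 scale. One Ramp1 probe set (1431413_at) is higher in both hypomorphs, another (1447474_at) is lower in both, and the groups lie close together for the third Ramp1 and the second D2hgdh probe set.

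Stk25 and D2hgdh, at places 56 and 62, lay at the far end of the interval. Stk25 encodes a Ste20 family kinase associated with the Golgi apparatus and had 1 probe set, with deposited signals of 122 and 64.5 in hypomorphs and 176 and 191 in controls. The groups did not overlap, with centred means of 6.35 ± 0.31 and 7.70 ± 0.06 (SD, n = 2 each). The log2 change was -1.35 ± 0.21 (SE, 95% confidence interval -1.81 to -0.90), or 39.1% of control, and missed the threshold (adjusted p 0.0550 in limma). It was past it without hypomorph replicate 1 (log2 change -1.58, adjusted p 0.000217) and without hypomorph replicate 2 (-1.13, 0.0384), in a range of 0.000217 to 0.447. With 1 hypomorph array left, the spread comes from the controls and from the variance shared across probe sets.

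D2hgdh encodes the mitochondrial enzyme that oxidises D-2-hydroxyglutarate. Its brighter probe set, 1437840_s_at, had signals of 120 and 117 in hypomorphs and 202 and 183 in controls. The groups did not overlap, and the log2 change was -1.01 ± 0.21 (SE, 95% confidence interval -1.47 to -0.56, adjusted p 0.148). Without hypomorph replicate 2 it was -1.22 with an adjusted p of 0.0264, within a range of 0.0264 to 0.524. The other probe set, 1437243_at, had signals of 76.1 and 49.1 against 33.8 and 53.1, which overlap, and a log2 change of 0.18 (95% confidence interval -0.43 to 0.79, adjusted p 0.761). The suffix _s_at marks probe sets whose probes match more than 1 transcript.

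Values of the genes nearest to Atg16l1 lay on both sides of the median, and none was called. On the near side, Inpp5d, which encodes the inositol phosphatase SHIP1 of blood cells, had signals of 575 and 424 in hypomorphs and 292 and 373 in controls on its brighter probe set. Both probe sets were at log2 changes of 0.25 (95% confidence interval -0.05 to 0.55) and 0.33 (-0.12 to 0.77), that is 0.07 and 0.15 relative to the median (adjusted p 0.372 and 0.415). Ngef, 3 places before Atg16l1, was too dim to test, with 2.99 and 3.35 in hypomorphs against 10.7 and 15.1 in controls, a centred difference of -1.79. Snorc and Kcnj13, dim genes beside Ngef that are no members, were also lower in both hypomorphs, at centred differences of -2.29 and -1.95. They were picked after their values had been seen. Neu2, also dim and between Ngef and Inpp5d, overlapped between the groups. Mroh2a, 5 places after Atg16l1, was higher on 1 dim probe set (1.34) and overlapped on the other. Over all probe sets too dim to test, 22.3% separated downward and 12.5% upward. On the other side Sag, which encodes the arrestin of photoreceptor cells, is the first gene after Atg16l1. Its single probe set was dim, at 28.7 and 19.7 in hypomorphs and 37.2 and 55.7 in controls, and the groups did not overlap. The log2 change was -1.20 ± 0.32 (SE, 95% confidence interval -1.91 to -0.50, adjusted p 0.222), and it stayed between -1.38 and -0.87 over the 12 alternatives, none of which called it. Its hypomorph mean log2 of 4.54 lay under the filter's limit of 4.87 and its control mean of 5.74 above it, so that it entered the test through the controls alone, as did 1 other member probe set, that of Sh3bp4.

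Dgkd, the second gene on that side, encodes a diacylglycerol kinase, and its 3 tested probe sets were at 0.29 to 0.53 (adjusted p 0.318 to 0.337). The brightest had signals of 1711 and 1332 in hypomorphs and 839 and 1143 in controls. Usp40, a ubiquitin-specific protease gene at place 3, had 4 tested probe sets, all below the median, at log2 changes of -0.57 to -0.06 (adjusted p 0.337 to 0.927). The lowest, 1458079_at, had signals of 54.9 and 30.7 against 48.2 and 50.1. Trpm8, the gene of the cold-sensing channel at place 6, had 1 probe set with signals of 2.19 and 3.49 in hypomorphs and 0.724 and 11.9 in controls, too dim to test. Near the altered gene, Sag, Usp40 and the dim Ngef were low in hypomorphs or below the median, and Inpp5d and Dgkd were above it. None of these was called. Sag entered the test through the controls alone, Ngef had no test, and some Usp40 probe sets changed sign in an alternative.

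**Figure D2:**
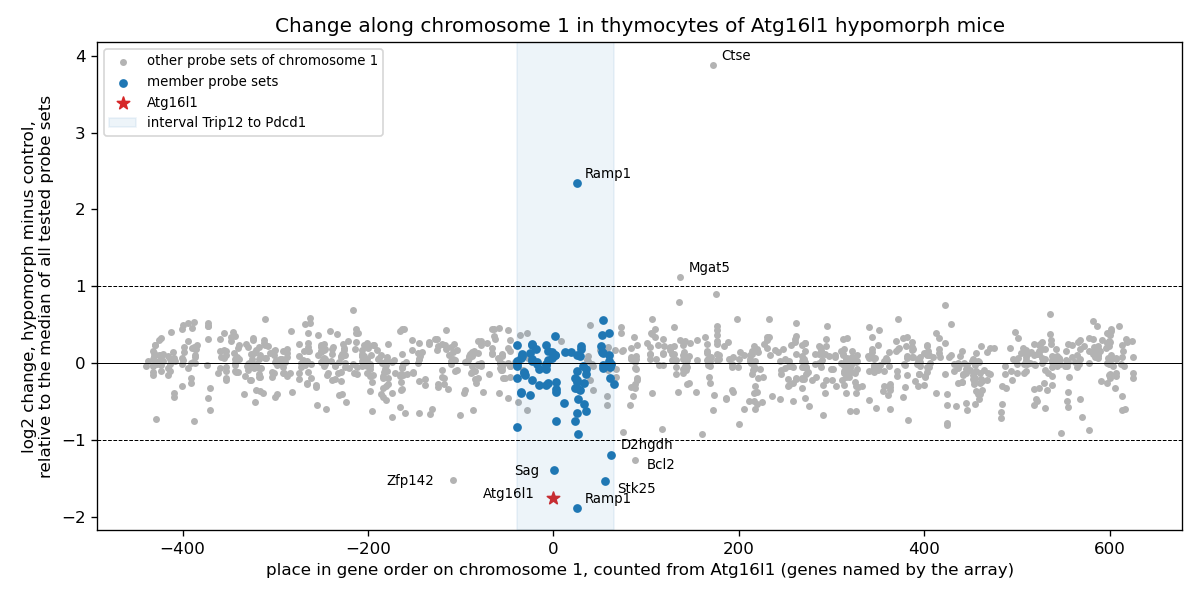
Log2 change of each tested chromosome 1 probe set relative to the median of all tested probe sets (vertical axis) against the place of its gene in the order along chromosome 1, counted from Atg16l1 (horizontal axis). Blue points are member probe sets, grey points other genes, the star Atg16l1, the shaded band the interval from Trip12 to Pdcd1 and dashed lines a relative change of 1 in either direction. Besides Atg16l1, the points beyond the dashed lines are Zfp142 before Atg16l1, and Sag, Ramp1, Stk25, D2hgdh, Bcl2, Mgat5 and Ctse after it.

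The sides of Atg16l1 differed in how widely their values spread. The 36 tested probe sets of the 13 members before Atg16l1 (Trip12 to Inpp5d) had relative changes with an SD of 0.23 and a median of -0.01, and none lay beyond 1. The 50 probe sets of the 23 members after it (Sag to Pdcd1) had an SD of 0.62 and a median of -0.12, with 5 beyond 1. These 5 include Sag, which entered the test through the controls alone, and the Ramp1 pair, which moved in opposite directions. The SD over all tested probe sets was 0.30. An SD leans on the farthest values. The quartiles of the relative change were -0.16 and 0.10 for members before Atg16l1 and -0.37 and 0.11 for those after it. Over all tested probe sets they were -0.18 and 0.14, so that apart from the farthest values the sides differed mainly downward. Other genes of the same interval, 23 tested probe sets of 18 genes, had an SD of 0.31, a median of 0.03 and none beyond 1. Probe sets of 1 gene share its RNA and are not independent, and no test was made of these spreads.

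The same count was then taken along the whole chromosome, in stretches drawn after the values had been seen. Of 478 tested probe sets before Atg16l1, 1 (0.209%) lay beyond 1, that of Zfp142. Of 187 within the first 200 places after it, 8 (4.28%) did, 3 above and 5 below, and of 470 farther on none did. The 8 comprise the 5 of the interval and, beyond Pdcd1, Bcl2 (place 88, relative change -1.26), Mgat5 (place 137, 1.12) and Ctse (place 172, 3.89). Sag, counted among the 5, entered the test through the controls alone. Mgat5, a gene of N-glycan branching, and Ctse, which encodes cathepsin E, were called (log2 changes 1.31 and 4.07, adjusted p 0.0233 and 7.78e-06), and Bcl2 was not (adjusted p 0.244). The other tested probe set of Ctse was at -0.42 (adjusted p 0.591) and that of Mgat5 at 0.49 (adjusted p 0.247). The Mgat5 call held in 8 of 13 alternatives (adjusted p 0.000570 to 0.447; 0.0906 without control replicate 1) and that of Ctse in 12 of 13. Leaving out 1 array at a time gave 2 to 6 before Atg16l1, 8 to 12 in the first 200 places and 0 to 4 farther on, the 6 and the 4 both without hypomorph replicate 1. By chromosome the share of tested probe sets beyond 1 ran from 0.416% on chromosome 5 to 1.90% on chromosome 14, with 0.880% on chromosome 1.

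Among RNA-binding and translation genes no probe set was called, and values stayed close to the median. The 5 members are Ncl (nucleolin, an abundant nucleolar protein), Eif4e2 (a cap-binding repressor of translation), Gigyf2 (its partner), Hdlbp (the RNA-binding protein vigilin) and Dis3l2 (an exoribonuclease). Their 19 tested probe sets had a median relative change of -0.01, and 10 lay below the median and 9 above it. The brightest Ncl probe set had signals of 4726 and 3545 in hypomorphs and 2754 and 2896 in controls, at a relative change of 0.02. The highest of the group was Hdlbp 1419806_at, with 71.0 and 45.6 against 21.9 and 30.2 (log2 change 0.75 ± 0.30 SE, adjusted p 0.283), while its 3 other tested probe sets were at 0.11 to 0.32. Arrays of the groups did not overlap on 8 of the 19, all higher, where 43.8% of all tested probe sets separated upward and 7.04% downward.

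Genes of ubiquitin-like protein conjugation lay mostly below the median, and none was called. Their place below the median was not tested, since the limma p-values concern a change from 0. Of 20 tested probe sets 16 were below it, with a median relative change of -0.23 and adjusted p-values of 0.330 to 0.991. Beside Usp40 these were Ube2f (a NEDD8-conjugating enzyme), with 5 of 5 below at -0.65 to -0.11, Asb1 (a SOCS box protein), with 2 of 2 below at -0.53 and -0.25, and Trip12 (a ubiquitin ligase), with 4 of 6 below at -0.83 to 0.23. The lowest, Trip12 1443125_at, had signals of 65.2 and 30.0 in hypomorphs and 63.9 and 49.0 in controls, which overlap as deposited and are lower in both hypomorphs after centring. Arrays of the groups did not overlap on 5 of the 20 probe sets downward (25%) and 3 upward (15%), against 7.04% and 43.8% of all tested probe sets. The COP9 signalosome, the complex that removes NEDD8 from cullins, has 2 genes among the members: Cops8 was at 0.15 and Cops7b at 0.01 and -0.02. Cops9, which lies in the interval but is no member, was at 0.09 and 0.03 on its tested probe sets. The 7 subunit genes listed from outside the interval had a median of 0.06, with 6 above, and none was called.

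In the group of nuclear body, chromatin and transcription genes, 6 of 12 members could be tested, and no probe set was called. Sp100 and Sp110 encode nuclear body proteins induced by interferon. Sp100 was at relative changes of 0.10 and 0.12, with signals of 475 and 321 in hypomorphs and 250 and 261 in controls on its brighter probe set, and the 3 probe sets of Sp110 ran from -0.39 to 0.07. Of 17 interferon response genes elsewhere, 6 lay above the median change and 11 below, at a median of -0.09, with none called. Hes6, a bHLH transcription factor gene, was at 0.18 and 0.22, Ing5, a reader of histone methylation, at -0.19 and -0.05, and Hdac4, a class II histone deacetylase gene, at -0.62 to -0.08. Lrrfip1, 2 places before Ramp1, was below the median on 3 of 3 probe sets. Its lowest, 1437477_at, had 81.0 and 39.9 against 53.0 and 86.3 (relative change -0.75, adjusted p 0.337), and its brightest, with 1191 and 887 against 760 and 894, was at -0.19.

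Per2, a repressor of the circadian clock, was too dim to test on its 3 probe sets, where the highest signal was 29.6. Of 8 tested clock genes elsewhere, 3 were above and 5 below the median change, at a median of -0.03, with none called. Hjurp is the chaperone that loads the centromeric histone CENP-A. No value is given for it, and other centromere genes give no reading of it. Of 16 such genes elsewhere, 15 lay above the median change, at a median of 0.33 and an adjusted p of at least 0.0964 in limma. Arrays of the groups did not overlap on 14 of the 16, all higher, where 43.8% of all tested probe sets separated upward. Gbx2 and Twist2, transcription factor genes of the embryo, were dim on all arrays.

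Among kinase, phosphatase and lipid signalling genes, 9 of 13 tested probe sets lay above the median and 4 below it, Stk25 included, and none was called. Ppp1r7, a regulatory subunit of protein phosphatase PP1, had signals of 367 and 256 in hypomorphs and 147 and 186 in controls on 1417919_at. The groups did not overlap, and the log2 change was 0.55 ± 0.15 (SE, 95% confidence interval 0.21 to 0.89, adjusted p 0.229), with the other probe set at 0.33. Pask, which encodes a PAS domain kinase, was at 0.41 ± 0.24 (adjusted p 0.398), with signals of 101 and 75.5 against 53.3 and 49.7. Ilkap, a phosphatase gene, was at log2 changes of 0.27 and -0.16, and Cab39, the scaffold of the LKB1 kinase complex, at 0.05 and 0.06. Arrays of the groups did not overlap on 9 of the 13 upward and on 2, those of Stk25 and Ilkap, downward, or 69.2% and 15.4%, against 43.8% and 7.04% of all tested probe sets.

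The remaining receptors and membrane proteins showed no change that passed. Pdcd1, which encodes the inhibitory T cell receptor PD-1, closes the interval at place 65. Its signals were 151 and 148 in hypomorphs and 119 and 133 in controls, overlapping after centring, and the log2 change was -0.09 (95% confidence interval -0.53 to 0.35, adjusted p 0.827). Itm2c, a membrane protein of the BRICHOS family, was at a log2 change of 0.03, with signals of 861 and 630 against 486 and 678. Ackr3, an atypical chemokine receptor gene, and Slc16a14, of the monocarboxylate transporter family, were dim.

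Among enzymes, Dtymk, the thymidylate kinase that supplies dTTP for DNA synthesis, was above the median on 3 of 3 probe sets. On 1449116_a_at its signals were 538 and 404 in hypomorphs and 213 and 287 in controls, without overlap (log2 change 0.58 ± 0.15 SE, 95% confidence interval 0.26 to 0.90, adjusted p 0.204). Scly, the selenocysteine lyase gene 2 places after Ramp1, was below it on both, at log2 changes of -0.28 (adjusted p 0.555) and -0.74 (adjusted p 0.316). On the lower of these, 1441192_at, signals were 37.8 and 58.6 against 65.8 and 61.4, with an SD of 0.75 between the centred hypomorph arrays. B3gnt7, Spp2, Col6a3 and Efhd1 were dim.

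Of the 10 small GTPase, trafficking and cilia genes, 5 could be tested and none was called. Their 6 probe sets ran from a relative change of -0.51 (Sh3bp4, an endocytic adaptor) to 0.19 (Pde6d, a carrier of lipid-modified proteins). The intraflagellar transport gene Traf3ip1 was at -0.04 and the ciliary gene Armc9 at -0.41 and 0.13. The Arf GTPase regulator gene Agap1 was at 0.14 on the probe set that could be tested.

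Dim probe sets have no test, and their deposited signals reached 46.1 at most. After centring, arrays of the groups did not overlap on 8 of the 42 with hypomorphs higher and on 8 with hypomorphs lower. Over all 22518 probe sets too dim to test, 12.5% separated upward and 22.3% downward. The widest apart was Ngef, described above, followed by Agap1 1435433_at, with 11.1 and 8.67 against 0.807 and 0.718, and by Hdlbp 1415988_at, with 45.4 and 24.6 against 9.76 and 6.09. These 3 were picked after their values had been seen, with detection calls not given in the sources used here.

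**Figure D3:**
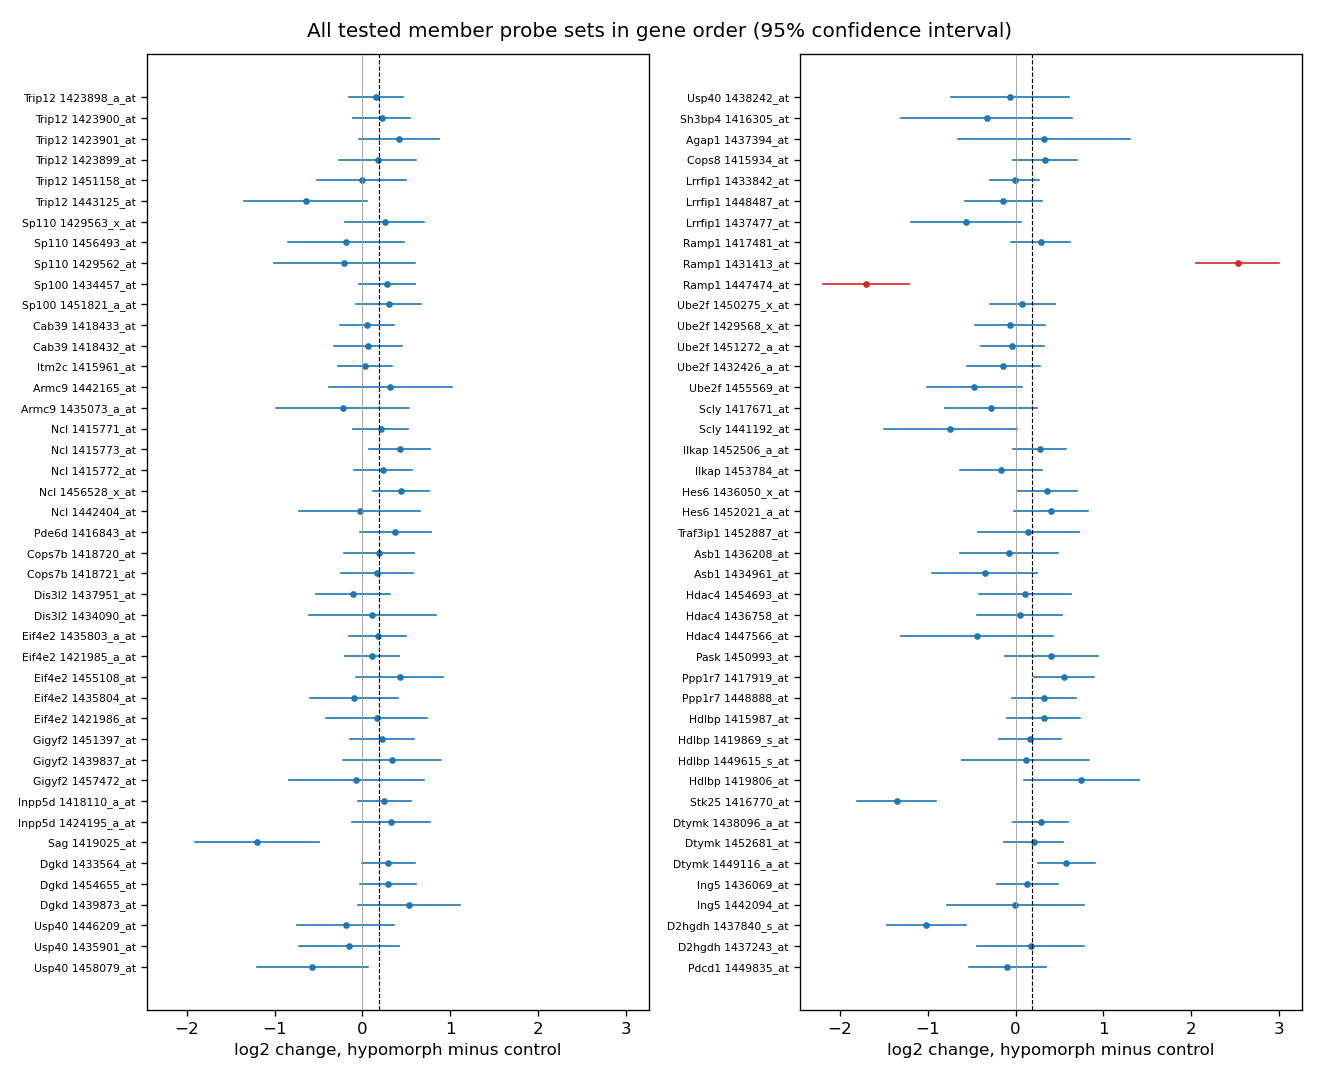
Log2 change, hypomorph minus control (horizontal axis), for the 86 tested member probe sets in gene order, from Trip12 at the top left to Pdcd1 at the bottom right. Points are limma estimates, bars their 95% confidence intervals, red marks an adjusted p under 0.05, and the dashed line is the median change of all tested probe sets (0.18). The intervals of most probe sets include the dashed line, and the red pair, both of Ramp1, lie on opposite sides of it.

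Over the 86 tested member probe sets the log2 change had a median SE of 0.20 in limma. Taking the brightest probe set of each of the 36 tested genes, 18 lay above the median change and 18 below it, and 32 lay within 0.5 of it. With 2 arrays in each group the smallest p of an exact permutation test is 0.333, and the p-values here rest on the variance that limma shares across probe sets.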

How the data were processed

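Total RNA of thymocytes was extracted with a Qiagen kit, labelled with biotin and measured on Affymetrix arrays, per the labels' protocols. The authors deposited 1 linear intensity per probe set and array, and the submitters' processing notes name GCOS, Affymetrix's own software. For GCOS, a version, a scaling target and detection calls were not given in the sources used here. Probe sets were named from the platform annotation where it gives 1 symbol (34945 of 45037), and genes were put in order along the chromosome with RefSeq's GRCm38.p6 table, from which only promoter sequences carry coordinates.

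A pseudocount of 2.29, the 10th percentile of all signals, was added before log2 was taken. Array medians spanned 0.66 (log2), over a limit of 0.3, and were therefore set to 1 common value. On this scale fold changes of dim genes are understated. The 22519 probe sets at or above the median of the mean log2 values over all arrays were tested with limma 3.58.1 in R 4.3.3 (lmFit, then eBayes with trend, a two-sided test without covariates), with Benjamini-Hochberg adjustment over all of them and a threshold of 0.05. The fit was also run on data simulated from its own variance model, without shifts between arrays. That run cannot vouch for the p-values given here. Precision is limited by having 2 arrays per group. Named with full values are called members, the 10 tested probe sets farthest above and below the median, the 6 members nearest Atg16l1 and members described by role. The members, the lists (COP9 signalosome, interferon response, circadian clock, centromere, cell markers) and the tests were chosen with earlier results of these data known. The alternatives changed the normalization, pseudocount, filter, variance model, replicate block and arrays used.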

Additional observations from a re-analysis of the deposited data

How the results depend on the processing

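Of 27 named member probe sets, 23 kept the sign of their log2 change under the 13 alternatives, as far as each was tested there. The exceptions were Usp40 1435901_at (0.18), 1438242_at (0.26) and 1446209_at (0.14) on uncentred values, and, with an array left out, Usp40 1438242_at (-0.29 to 0.16, positive without control replicate 1) and Hdac4 1447566_at (-0.98 to 0.11, positive without hypomorph replicate 2). None of these was called in any setting. The count of called member probe sets, 2 of 86, was 1 with quantile normalization, on uncentred values or with no filter, and 1 to 4 with an array left out. In limma it was 0 of 41 with the filter at the 75th percentile (7 with an unadjusted p under 0.05), which leaves out both called Ramp1 probe sets, and 0 of 86 without the variance trend (11 with an unadjusted p under 0.05). Over all probe sets 14 were called. Quantile normalization gave 4, centring on tested probe sets alone 7. This count was 84 on uncentred values, 4 with no filter and 8 to 340 with an array left out. It was 0 without the variance trend (2492 with an unadjusted p under 0.05). The median log2 change of the tested member probe sets, 0.14, turned with the scaling, to -0.040 with quantile normalization and -0.032 when tested probe sets set the centre. It was 0.47 on uncentred values, 0.069 with no filter, 0.22 at the 75th percentile and 0.062 to 0.17 with an array left out. Relative to all tested probe sets it stayed between -0.07 and -0.0023. The following counts were added after seeing the data. Member probe sets more than 1 from the median, 5 of 86, were 13 of 128 with no filter, 1 of 41 at the 75th percentile and 4 to 8 with an array left out. On chromosome 1 such probe sets numbered 1 of 478 before Atg16l1, 8 of 187 in the first 200 places after it and 0 of 470 beyond. With no filter they were 64 of 905 (7.07%), 45 of 392 (11.5%) and 69 of 864 (7.99%). At the 75th percentile they were 0 of 257, 4 of 109 (3.67%) and 0 of 242. With an array left out they were 2 to 6, 8 to 12 and 0 to 4, of the same numbers tested as in the main fit. The causes of these shifts were not tested, except that the filter sets how many dim probe sets enter. With the replicate number as a block 1 member probe set (Ramp1 1431413_at, adjusted p 0.00548) and 9 probe sets in all were called, and Ramp1 1447474_at was at an adjusted p of 0.0683. Deviations of same-numbered arrays correlated at 0.08, and the labels give no pairing beyond the number.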
